A study of Zea mays with 109 samples.

Results

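Plants keep daily time with a feedback loop of transcription factors, and 7 maize genes of this loop and its flowering output are described here across leaves and other organs. The genes are lhy (Zm00001d049543), cca1 (Zm00001d024546), gi1 (Zm00001d008826), gi2 (Zm00001d039589), conz1 (Zm00001d045735), prr73 (Zm00001d047761) and toc1 (Zm00001d017241). They were picked by name and identifier from the 48367 entries of a total RNA table and the 39498 entries of a ribosome-bound RNA table. The total RNA table listed 6 of them, and cca1 was listed only in the ribosome-bound table. The choice was made with earlier results of these data known, in particular the levels of lhy in total RNA of leaves with the letters L and N. That contrast is therefore described without a test. Whether levels in other organs also guided the choice is not known, so tests between organs are no independent support for it. The names come from the member list, because the files do not pair identifiers with symbols, so the label of the gene set could not be checked against the files. For the same reason other clock genes and tissue marker genes could not be looked up.

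In Arabidopsis, LHY and CCA1 are related MYB-type repressors that peak around dawn, while TOC1, a pseudo-response regulator, peaks in the evening and represses them in turn. GIGANTEA, the protein encoded by the gi genes, is an evening-phased protein that links the clock to flowering. CONSTANS, after which conz1 is named, promotes flowering of Arabidopsis in long days. PRR73 belongs to the same family of pseudo-response regulators as TOC1, and day-phased members of that family repress CCA1 and LHY in Arabidopsis.

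The plants were of the inbred line B73 and grew untreated in a greenhouse at 25 °C, with days of 12 h light and 12 h darkness. For each tissue, equal RNA amounts of 3 replicates, of 5 to 10 plants each, were combined, so a tissue had 1 library and no replicate of its own. The 26 total RNA libraries came from 11 leaf samples, 6 inflorescences (ears of 2 mm, 5 mm and 1 cm, tassels of 2 mm and 1 cm, and a sample called Inflorescence), 3 shoot apical meristems (SAM, at stages V1, V3 and V4), 2 primary roots, a stem, an internode, an embryo and an endosperm. Of the leaf samples, 4 carried the letter L, 4 the letter N at the same leaf positions, and 3 no letter (the third leaf, the ear leaf and the husk leaf). The labels do not explain the letters, and they give no hour of sampling. The ribosome-bound set had 20 of these tissues, with 4 L leaves, 1 N leaf, 3 leaves without a letter, 4 inflorescences and 2 SAM samples. Because tissues stood in for replicates, every p-value below rests on the spread between tissues within organ classes, estimated over all classes of a fit together. A lower level in such bulk RNA cannot tell fewer expressing cells from less RNA per cell.

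Levels are in TPM, a relative abundance that is scaled per transcript length and keeps no read depth. Entries of a total RNA library added up to between 159407 TPM (husk leaf) and 395863 TPM (2mm Tassel), and to 1000000 TPM within 1 TPM in every ribosome-bound library. The best matching total RNA library of each ribosome-bound library was that of its own tissue in 19 of 20 cases, with r of 0.678 to 0.921 over 19620 entries. The exception was the 5mm Ear, which correlated at 0.895 with its own tissue and at 0.897 with the 1cm Ear.

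In total RNA the dawn gene lhy was high in L leaves and near 1 TPM or below in N leaves. With the letter L, the first leaf had 87.19 TPM, the topmost leaf 38.41, and the stage 2 leaf 74.16 at its base and 100.93 at its tip. The N samples of these positions had 1.06, 0.42, 0.46 and 0.85 TPM in that order, so the letters did not overlap and each L value was 82.3 to 161 times its N partner. The mean difference of L minus N was 5.42 ± 0.445 in log2(TPM + 1) (SD, n = 4 positions). The pseudo-response regulator gene prr73 had the same order. Its L values were 22.12 TPM in the base, 36.16 in the first leaf, 32.06 in the tip and 25.68 in the topmost leaf, against 2.09, 0.86, 1.40 and 1.80 TPM in the N partners. Each L value was 10.6 to 42.0 times its N partner, and the mean log2 difference was 3.57 ± 0.620 (SD, n = 4).

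The evening gene toc1 ran the other way. It stood at 0.38 TPM in the base, 0.35 in the first leaf, 0.18 in the tip and 0.13 in the topmost leaf with the letter L, and at 4.79, 6.96, 3.34 and 3.12 TPM in the N partners. Every N value was 12.6 to 24 times its L partner, with a mean L minus N log2 difference of -2.09 ± 0.324 (SD, n = 4). The CONSTANS-like gene conz1 was lower in L as well. Its L values were 0.53 TPM in the base, 1.29 in the first leaf, 0.40 in the tip and 0.30 in the topmost leaf, and its N values were 2.57, 3.34, 1.69 and 1.71 TPM. The mean log2 difference of conz1 was -1.04 ± 0.138 (SD, n = 4), and each N value was 2.59 to 5.7 times its L partner.

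The 2 GIGANTEA genes differed from each other in these leaves. For gi2 the L values were 6.52 TPM in the base, 9.92 in the first leaf, 7.58 in the tip and 4.40 in the topmost leaf, all above the N values of 2.68, 1.9, 3.74 and 0.89 TPM. The mean log2 difference of gi2 was 1.33 ± 0.479 (SD, n = 4). For gi1 the L values were 16.08 TPM in the base, 20.60 in the first leaf, 14.40 in the tip and 10.65 in the topmost leaf, and the N values were 34.98, 18.23, 23.37 and 16.49 TPM. The letters overlapped for gi1, N was higher at 3 positions and L at the first leaf, and the mean log2 difference was -0.54 ± 0.518 (SD, n = 4).

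Of the 6 genes, lhy, prr73 and gi2 had all 4 L values above all 4 N values, as did 3.42% of the 16238 entries measured in these leaves, and toc1 and conz1 had all 4 below, as did 8.71%. Since the genes were chosen with this contrast in view, these counts describe the choice. The same 5 genes stood apart when each library was scaled to the same listed sum.

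**Figure D1:**
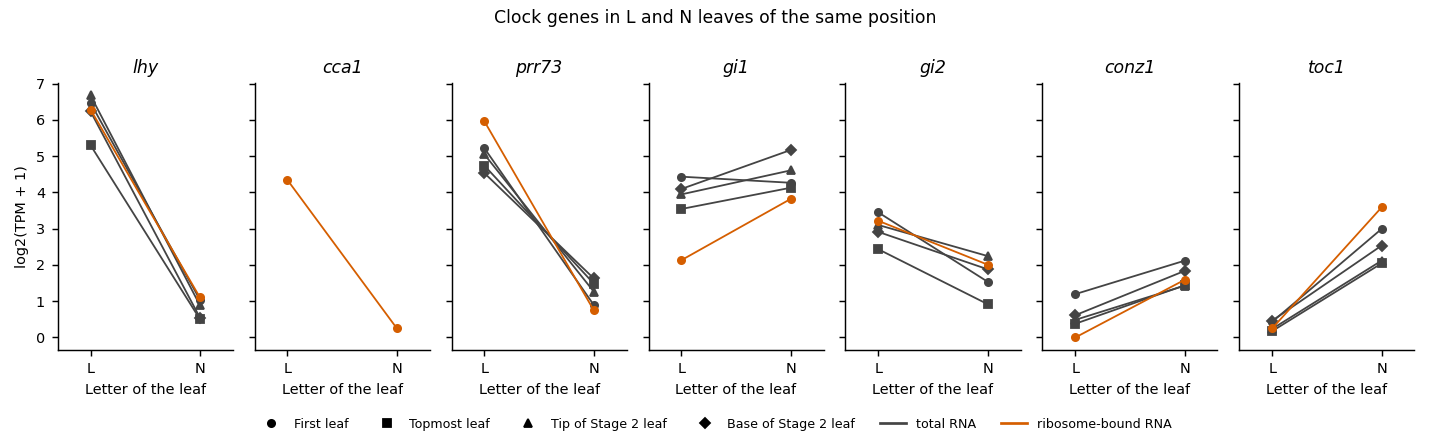
Level of each gene in leaves with the letter L (left) and N (right), in log2(TPM + 1); each line joins the libraries of a leaf position, grey for total RNA and orange for ribosome-bound RNA, which held the first leaf only. lhy, cca1, prr73 and gi2 slope down from L to N and toc1 and conz1 slope up, while the lines of gi1 in total RNA go both ways.

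Ribosome-bound RNA was a second assay, with the first leaf as its only L and N pair. Total RNA of the first leaf was part of the contrast known when the genes were chosen, so this pair is no independent support. With 1 library per letter there is no test. In the L library lhy stood at 76.85 TPM, cca1 at 19.26 and prr73 at 61.17, and in the N library at 1.15, 0.19 and 0.68 TPM in that order. These 3 genes were more than 4-fold higher in L on the log2(TPM + 1) scale, with differences of 5.18 for lhy, 4.09 for cca1 and 5.21 for prr73, as were 1.37% of the 18340 entries measured in the pair. toc1 was at 0.19 TPM in L and 11.02 in N, a difference of -3.34, and 10.1% of entries were more than 4-fold lower in L. An entry was counted if it had at least 1 TPM in either library. cca1, prr73 and toc1 reached this only in the library where they were high, so the shares serve as description.

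The other 3 genes differed by less than 4-fold in the ribosome-bound pair. gi2 had 8.30 TPM in L and 3.02 in N, gi1 had 3.38 and 13.13 TPM, and conz1 was listed at 0 in L and stood at 2.01 TPM in N. The median entry differed by -1.06 in log2(TPM + 1), so the gi1 difference of -1.69 and the conz1 difference of -1.59 lay nearer to the median entry than that of toc1. The gi2 difference of 1.21 lay above that of 96.4% of entries. In total RNA of the first leaf, where the median entry differed by -0.22, gi1 was slightly higher in L (0.17), the opposite order to its ribosome-bound RNA.

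Over all organs, lhy had the widest range of the genes. Its total RNA ran from 0.16 TPM in the 1cm Tassel to 100.93 TPM in the L leaf tip, a ratio of 631, and 97.1% of 24997 entries had a smaller range in log2(TPM + 1). The 6 highest lhy levels were all in leaves, namely the 4 L leaves, the third leaf (45.54 TPM) and the ear leaf (43.91 TPM). The internode followed with 28.13 TPM. The 2mm Tassel (16.38 TPM), the SAM at V4 (15.34), the husk leaf (13.98) and the SAM at V3 (13.83) formed a close group. The stem had 6.92 TPM, the roots 6.32 at V1 and 3.64 at 6 days after sowing, the SAM at V1 3.15 and the embryo 3.14. The 4 N leaves, the endosperm (0.29 TPM) and the other 5 inflorescences (0.16 to 1.03 TPM) filled the lowest 10 places. No library had a replicate, so neighbours in this order cannot be told apart by their spread.

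prr73 ranged from 0.86 TPM in the N first leaf to 36.16 TPM in the L first leaf. The ear leaf (24.07 TPM), the 2mm Tassel (22.10) and the internode (21.31) lay near the lowest L leaf (22.12), and the other samples outside the L and N leaves, except the endosperm (2.10) and the 1cm Tassel (3.85), lay between 7.99 and 18.80 TPM. The N leaves held the lowest 4 values of prr73. Over the 26 libraries the log2(TPM + 1) values of prr73 and lhy correlated with r = 0.819, and with r = 0.754 over the 15 libraries that were not leaf. These points share the library scale, and r is given as a description. Over all 26 libraries it partly restates the contrast of L and N leaves.

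toc1 was highest in the inflorescences, at 11.30 TPM in the 2mm Tassel, 9.33 in the 1cm Ear, 8.59 in the 5mm Ear, 7.89 in the Inflorescence sample and 6.13 in both the 2mm Ear and the 1cm Tassel. The 2mm Tassel also had the highest listed sum. After scaling both tassels to the same sum, its toc1 level was 0.771 times that of the 1cm Tassel. The roots (7.41 and 6.83 TPM), the SAM at V1 (8.10) and the N first leaf (6.96) lay in the same range as the inflorescences. Leaves without a letter had 0.74 TPM in the third leaf, 1.01 in the ear leaf and 1.24 in the husk sample, between the L and the N leaves. The correlation of toc1 with lhy was -0.662 over all 26 libraries, -0.936 over the 11 leaf libraries and -0.10 over the 15 others. The r over leaves and over all libraries partly restates the L and N contrast known when the genes were chosen.

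gi1 had the narrowest range of the 6 genes. It ran from 7.38 TPM in the third leaf to 56.18 TPM in the 2mm Tassel, a ratio of 7.61, and 51.3% of entries had a smaller range in log2(TPM + 1). gi2 ran from 0.89 TPM in the N topmost leaf to 24.19 TPM in the 2mm Tassel. In the inflorescences gi1 had 16.11 to 56.18 TPM and gi2 7.58 to 24.19 TPM, and gi1 exceeded gi2 in all 26 libraries. The genes correlated with r = 0.594 over 26 libraries and r = 0.789 over the 15 libraries that were not leaf. conz1 was low in every sample, from 0.30 TPM in the L topmost leaf to 10.52 TPM in the 2mm Tassel, with 8.97 TPM in the SAM at V4 and 6.68 TPM in the embryo. The top place of the 2mm Tassel for gi1, gi2 and conz1 is on the deposited scale, where this library had the highest listed sum.

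**Figure D2:**
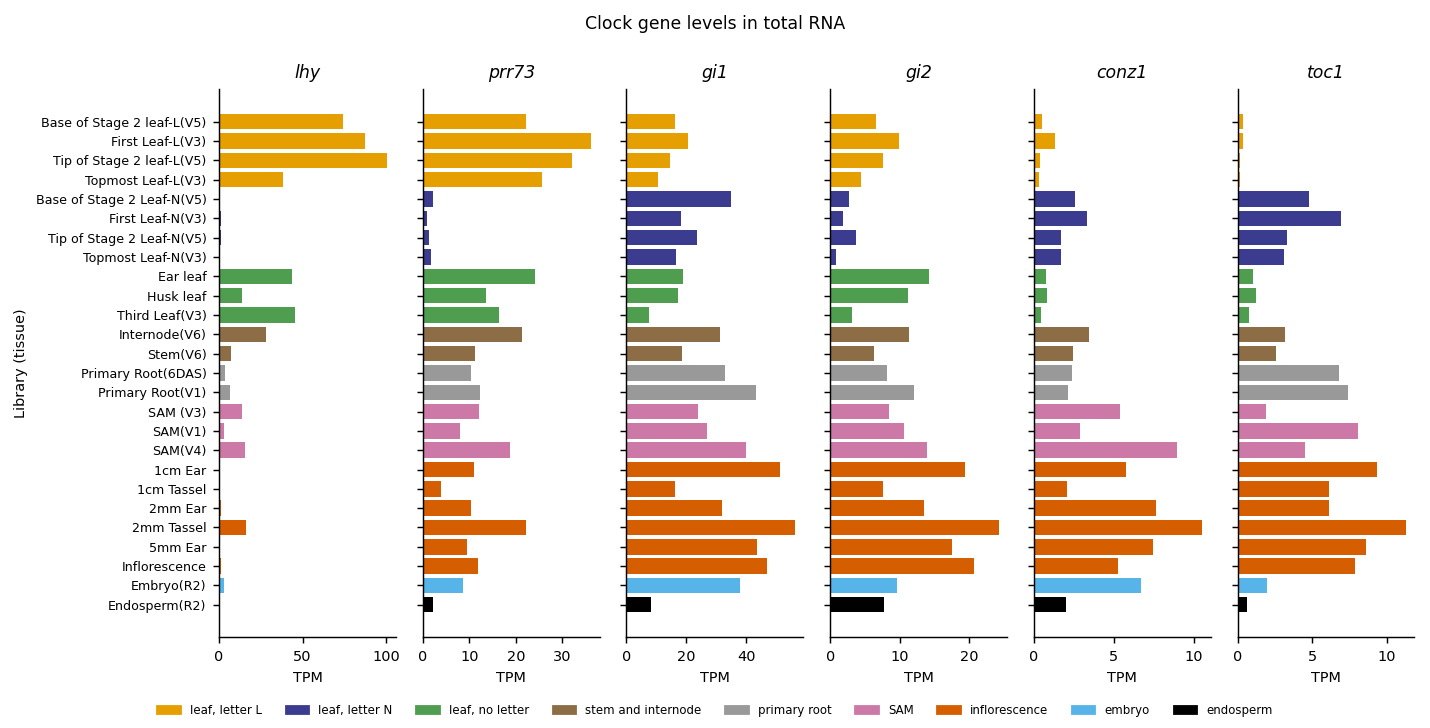
Total RNA level of each gene in TPM (x axis, starting at 0, with its own scale per gene) in the 26 libraries (y axis), coloured by organ class. The longest bars of lhy and prr73 fall in L leaves, where those of toc1 are shortest. The 2mm Tassel has the highest bars of gi1, gi2, conz1 and toc1, but also the highest listed sum of all libraries (395863 TPM).

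To compare organ classes, limma was fitted to log2(TPM + 1) of all entries that reached 1 TPM in 2 or more libraries, and an entry was called at an adjusted p under 0.05 (Benjamini-Hochberg, over all entries) and a log2 difference of at least 1. All 6 genes passed the filter. In the fit, L, N and letterless leaves formed 1 class, so the values without N and without L libraries stand beside it. L and N libraries of a position deviated together from their class means (r of 0.544 to 0.853 over entries), so p-values that count them as separate units may be too small. The comparisons with leaf share the leaf libraries. All classes also share 1 estimate of the spread per entry, which includes the gap between L and N leaves. For lhy in root against leaf, the SE was 1.49 with all leaves and 0.860 without the N leaves.

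Compared with leaf, inflorescences had more toc1, conz1, gi2 and gi1 RNA and less lhy RNA. toc1 had 6.13 to 11.30 TPM in the 6 inflorescences (median 8.24) and 0.13 to 6.96 TPM in the 11 leaves (median 1.01), a log2 difference of 1.91 (SE 0.379, adjusted p = 0.000113). conz1 had 2.08 to 10.52 TPM (median 6.59) against 0.30 to 3.34 TPM (median 0.82), a difference of 1.72 (SE 0.288, adjusted p = 1.49e-05). gi2 had 7.58 to 24.19 TPM (median 18.38) against 0.89 to 14.14 TPM (median 4.40), a difference of 1.55 (SE 0.367, adjusted p = 0.000687). gi1 had 16.11 to 56.18 TPM (median 45.18) against 7.38 to 34.98 TPM (median 17.19), a difference of 1.13 (SE 0.271, adjusted p = 0.000747). The groups overlapped for each of these 4 genes. Of all 24997 entries, 36.8% were called higher in inflorescence, and the median entry was 0.65 higher, so the excess over the median entry was 1.26 for toc1, 1.07 for conz1, 0.90 for gi2 and 0.48 for gi1. With quantile normalization gi1 (0.56) and gi2 (0.88) no longer reached the log2 difference of 1.

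lhy was called lower in inflorescence, with a log2 difference of -2.64 (SE 0.985, adjusted p = 0.0201), as were 10.5% of entries. It had 0.16 to 16.38 TPM in inflorescences (median 0.80) and 0.42 to 100.93 TPM in leaves (median 38.41). Without the N leaves the difference was -4.43 (SE 0.597, adjusted p = 3.38e-06), and without the L leaves it was -1.33 (SE 0.910, adjusted p = 0.201), so lhy was not called when the L leaves were left out. Without the 1cm Tassel and the husk leaf, which had the lowest TPM sums of their classes, it was -2.43 (adjusted p = 0.0536). prr73 differed by 0.10 (SE 0.626, adjusted p = 0.904). Its direction also depended on the settings, since it was -0.63 with quantile normalization (adjusted p = 0.387). Without N leaves prr73 was lower in inflorescence by a log2 difference of -1.09 (SE 0.311, adjusted p = 0.00409), and without L leaves the difference was 0.94 (SE 0.575, adjusted p = 0.151).

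The shoot apical meristem had more conz1 than leaf. Its 3 values were 5.37, 2.90 and 8.97 TPM at V3, V1 and V4, a log2 difference of 1.59 (SE 0.370, adjusted p = 0.000692 in limma). toc1 was at 1.93, 8.10 and 4.54 TPM in the same order, a difference of 1.13 (SE 0.487, adjusted p = 0.0443 in limma). Of all entries 40.8% were called higher and 9.43% lower in the meristem, and the median entry was 0.74 higher. Neither gene was called with quantile normalization, and the toc1 call was lost without the L leaves (adjusted p = 0.222) and without the SAM at V1 (adjusted p = 0.265) or at V4 (adjusted p = 0.117). The meristem values of lhy (13.83, 3.15 and 15.34 TPM), prr73 (12.00, 7.99 and 18.80 TPM), gi1 (23.89, 26.78 and 39.83 TPM) and gi2 (8.42, 10.57 and 13.97 TPM) did not pass the test against all leaves. Without the N leaves lhy was called lower (-2.33, adjusted p = 0.00955 in limma), and without the L leaves gi2 was called higher (1.25, adjusted p = 0.0390 in limma).

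Of the 6 genes, toc1 and gi1 were called higher in roots than in leaf on the deposited scale. toc1 was at 6.83 TPM at 6 days and 7.41 TPM at V1, a log2 difference of 1.75 (SE 0.574, adjusted p = 0.0145 in limma). gi1 was at 32.91 and 43.08 TPM, a difference of 1.11 (SE 0.410, adjusted p = 0.0272 in limma). The background was 34.1% of entries called higher and 6.27% called lower, with the median entry 0.65 higher. With quantile normalization neither was called, toc1 at 1.00 (adjusted p = 0.174) and gi1 at 0.18 (adjusted p = 0.696), and without the L leaves gi1 was at 1.03 (adjusted p = 0.0698). Leaving out a root left 1 library, assumed to vary like the other groups. Neither gene was then called, at differences of 1.80 and 1.70 for toc1 (adjusted p = 0.0983 and 0.103) and 1.3 and 0.93 for gi1 (adjusted p = 0.0931 and 0.212). lhy, at 3.64 and 6.32 TPM in roots, was called lower only against leaves without the N libraries (log2 difference -3.11, adjusted p = 0.00563 in limma).

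In stem and internode, no gene was called against leaf by limma. At an unadjusted p under 0.05 the count was also 0, while 12185 of 24997 entries had such a p-value. By the call rule, 21.8% of entries were called higher and 7.92% lower. Against leaves without the N libraries conz1 (3.45 TPM in the internode and 2.42 in the stem) was higher by 1.26 (adjusted p = 0.0141 in limma) and toc1 (3.21 and 2.58 TPM) by 1.35 (adjusted p = 0.00483 in limma).

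In ribosome-bound RNA the highest levels of the dawn genes were again in L leaves, although lhy in the third leaf exceeded that of the L first and topmost leaves. lhy had 293.09 TPM in the base, 76.85 in the first leaf, 211.96 in the tip and 67.60 in the topmost leaf, and cca1, its close relative, had 101.44, 19.26, 49.82 and 27.18 TPM. Leaves without a letter had 87.73 TPM of lhy in the third leaf, 35.94 in the ear leaf and 10.44 in the husk sample, and 16.26, 11.83 and 8.61 TPM of cca1. The stem (49.57 TPM of lhy and 16.63 of cca1) and the SAM at V4 (30.72 and 16 TPM) were the highest organs other than leaf. The inflorescences had 2.45, 0.30, 8.94 and 8.44 TPM of lhy and 4.55, 1.34, 4.58 and 7.66 TPM of cca1 in the 1cm Ear, 1cm Tassel, 5mm Ear and Inflorescence sample. The genes correlated with r = 0.922 over the 20 libraries and r = 0.768 over the 12 libraries that were not leaf.

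Ribosome-bound toc1 was listed at 0 in 4 of the 7 leaves other than the N leaf, namely the L base, tip and topmost leaf and the third leaf. It stood at 0.19 TPM in the L first leaf, 0.23 in the ear leaf, 3.84 in the husk sample and 11.02 in the N first leaf. The inflorescences had 13.48 TPM in the 1cm Ear, 16.12 in the 1cm Tassel, 7.35 in the 5mm Ear and 8.80 in the Inflorescence sample, so only the N first leaf overlapped with them. gi1 was at 62.90, 54.35, 30.44 and 54.10 TPM in these inflorescences in the same order, and all 4 values were above those of the 8 leaves, which ran from 2.24 in the third leaf to 27.09 TPM in the husk leaf. gi2 was at 69.01, 57.03, 31.25 and 72.17 TPM, and the husk leaf (43.27 TPM) overlapped with this range while the other leaves had 1.91 to 14.10 TPM.

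**Figure D3:**
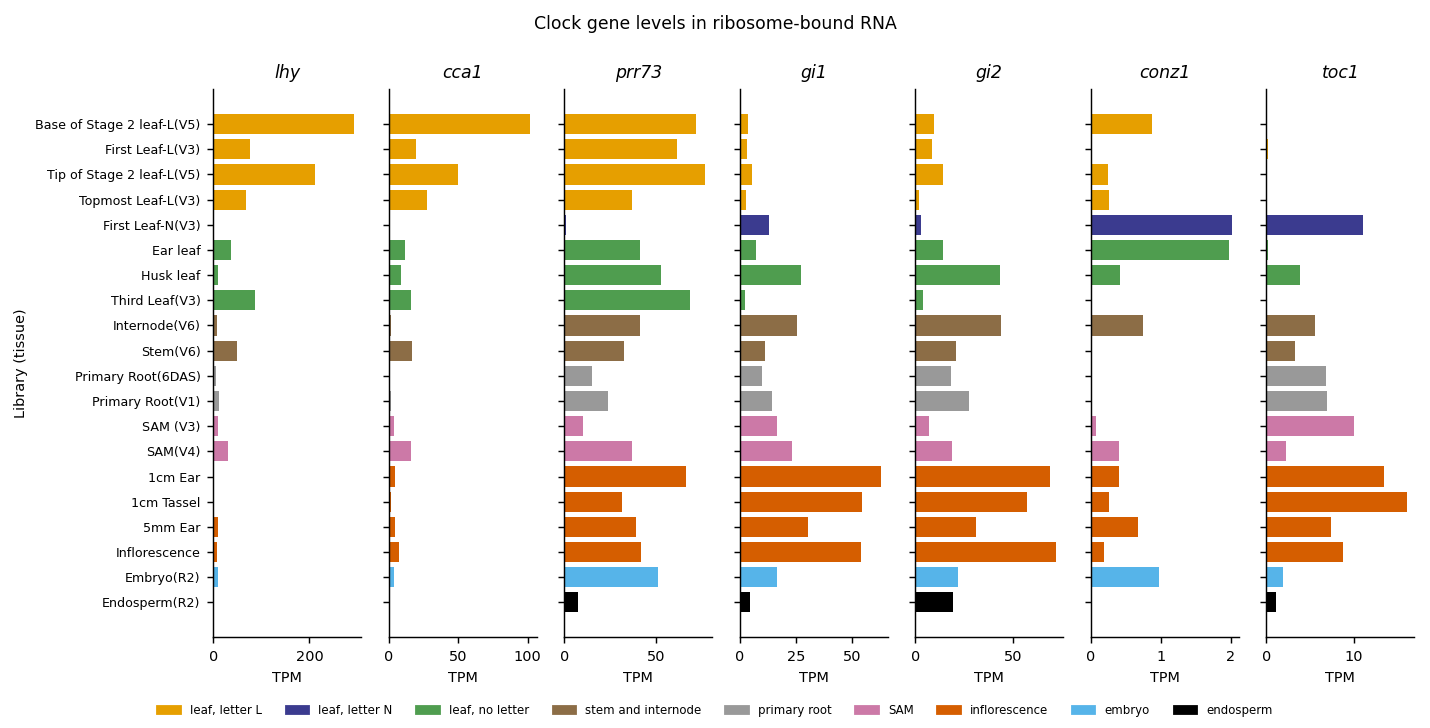
Ribosome-bound RNA level of each gene in TPM (x axis, starting at 0, with its own scale per gene) in the 20 libraries (y axis), coloured by organ class. lhy and cca1 have their longest bar in the base of the L leaf, toc1 has almost no bar in L leaves, and gi1 and gi2 are longest in inflorescences.

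In the limma fit of ribosome-bound RNA, gi1 was higher in inflorescence than in leaf by 2.85 in log2(TPM + 1) (SE 0.501, adjusted p = 0.00012), toc1 by 2.78 (SE 0.619, adjusted p = 0.000952) and gi2 by 2.57 (SE 0.585, adjusted p = 0.00112). Of the 25807 entries tested, 46.1% were called higher, and the median entry was 0.90 higher. These 3 genes remained called without the N library and without the L libraries. lhy was lower, with a difference of -3.40 (SE 1.07, adjusted p = 0.0111), as were 11.5% of entries, but it was not called without the L leaves (-1.90, adjusted p = 0.149) or without the 1cm Tassel (-2.80, adjusted p = 0.0511). cca1 differed by -1.78 (SE 0.886, adjusted p = 0.0898) and was called without the N leaf (-2.33, adjusted p = 0.00609) and with quantile normalization (-2.86, adjusted p = 0.0152). prr73, at 31.59 to 65.85 TPM in inflorescences and 0.68 to 76.54 TPM in leaves, differed by 0.25 (SE 0.794, adjusted p = 0.808).

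conz1 was scarcely present in ribosome-bound RNA. It was listed at 0 in the L first leaf, the third leaf, both roots, the stem and the endosperm, and exceeded 1 TPM only in the N first leaf (2.01) and the ear leaf (1.97), through which it passed the filter. The inflorescences had 0.40, 0.26, 0.67 and 0.18 TPM. Since it entered the fit through these leaf libraries alone, no test of ribosome-bound conz1 or of its ratio to total RNA is given.

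**Figure D4:**
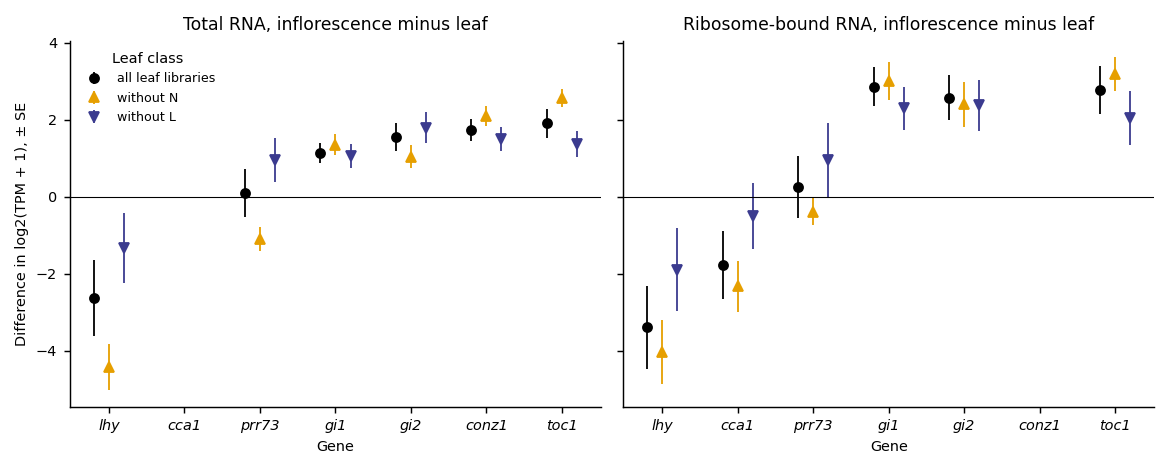
Difference between inflorescence and leaf in log2(TPM + 1), with bars of 1 SE, for each gene in total RNA (left) and ribosome-bound RNA (right); circles use all leaves, upward triangles omit N leaves and downward triangles omit L leaves. gi1, gi2 and toc1 stay above 0 in all 3 versions and both assays, lhy stays below 0 with sizes from -4.43 to -1.33 in total RNA, and prr73 changes sign. cca1 was not listed in total RNA, and ribosome-bound conz1, which entered the fit through leaf libraries alone, is not drawn.

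In the 20 tissues with both libraries, total RNA was subtracted from ribosome-bound RNA in log2(TPM + 1), which gives a log2 ratio. The median entry of a tissue had a log2 ratio of 0.28 to 1.98, so each gene was read against it. gi1 lay below the median entry in 20 of 20 tissues (median -1.92) and conz1 in 19 of 20 (median -2.95), with conz1 at -3.85 to -3.27 in the 4 inflorescences. toc1 lay below it in 19 of 20 tissues (median -1.15), and the SAM at V3 was the exception at 0.54. A gene near 0 TPM in both assays has a log2 ratio near 0 on this scale, and so lies below the median entry. In L leaves toc1 had 0.13 to 0.38 TPM in total RNA and 0 to 0.19 TPM in ribosome-bound RNA. There conz1 had 0.30 to 1.29 and 0 to 0.87 TPM, so such tissues add little to the counts of toc1 and conz1. prr73 lay above the median entry in 12 tissues, among them all 4 inflorescences, and lhy and gi2 in 7 tissues each.

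The ratio was higher in inflorescence than in leaf in limma for gi1 (1.62, SE 0.444, adjusted p = 0.0131), gi2 (1.43, SE 0.410, adjusted p = 0.0170) and prr73 (1.14, SE 0.383, adjusted p = 0.0362). Of the 19620 entries tested, 18.3% were called higher and 3.45% lower, and the median entry was 0.48 higher. With a pseudocount of 0.1 TPM none of the 3 was called, although the differences were 1.80 for gi1 (adjusted p = 0.0536), 1.47 for gi2 (adjusted p = 0.0729) and 1.26 for prr73 (adjusted p = 0.0941). With quantile normalization they were 0.88, 0.80 and 0.59 in that order, without the 1cm Tassel 1.19, 1.1 and 0.97, and without the L leaves 1.03, 1.12 and 1.1, and none was called. The prr73 call was also lost without the N leaf (0.97, adjusted p = 0.0564), the 1cm Ear (1.06, adjusted p = 0.0927) or the 5mm Ear (1.24, adjusted p = 0.0521). lhy (1.09, SE 0.686, adjusted p = 0.246) and toc1 (0.53, SE 0.429, adjusted p = 0.367) were not called. Over the 20 tissues, total and ribosome-bound levels correlated with r = 0.886 for toc1, 0.866 for lhy, 0.783 for prr73, 0.774 for gi2, 0.712 for gi1 and 0.0925 for conz1, given as a description.

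A balance of dawn and evening genes was formed in each library as log2 of the dawn sum over the sum of toc1, gi1 and gi2, each sum plus 1 TPM. The dawn sum was lhy alone in total RNA and lhy plus cca1 in ribosome-bound RNA, so the assays are not on the same scale. It is a sum over genes chosen with the leaf contrast known and is given without a test. In total RNA it was above 0 in the 4 L leaves (1.28 to 2.14), the third leaf (1.92) and the ear leaf (0.36). It was below 0 in the husk leaf (-1.03), in the 4 N leaves (-4.90 to -3.77) and in all 15 libraries that were not leaf. Of these the internode was nearest to 0 (-0.68), and the inflorescences ran from -5.80 in the 5mm Ear to -2.41 in the 2mm Tassel. The N leaves thus fell within the range of the inflorescences, but its upper end was the 2mm Tassel alone. The next inflorescence was the 1cm Tassel (-4.73), and of the N leaves only the base of the stage 2 leaf (-4.90) lay below that. The evening sums of L leaves (15.18 to 30.87 TPM) and N leaves (20.5 to 42.45 TPM) overlapped in total RNA, while the lhy levels did not. In L leaves toc1 gave only 0.13 to 0.38 TPM of the evening sum, and gi2 was higher in L than in N. The balance therefore shows mainly the lhy difference between the letters. toc1 alone was higher in N leaves (3.12 to 6.96 TPM), but gi1 (16.49 to 34.98 TPM there) was the larger part of the evening sum.

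In ribosome-bound RNA the balance was 2.92 to 4.78 in the L leaves, 3.84 in the third leaf, 1.12 in the ear leaf, -1.91 in the husk sample and -3.59 in the N first leaf. Of the 12 libraries that were not leaf, the stem (0.90) and the SAM at V4 (0.07) were above 0, and the other 10 were below, down to -5.61 in the 1cm Tassel.

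**Figure D5:**
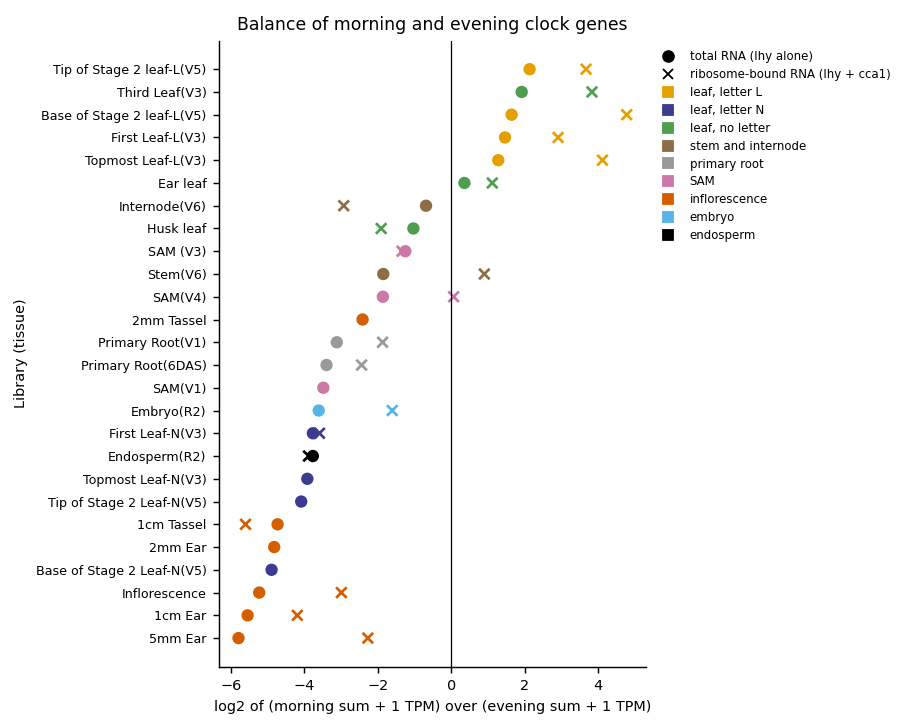
Balance of dawn and evening genes per library on a log2 scale (x axis), ordered by total RNA; circles are total RNA (lhy alone as dawn gene), crosses ribosome-bound RNA (lhy plus cca1), and colours are organ classes. L leaves lie right of 0 in both assays, N leaves and inflorescences lie left of 0, and the stem and the internode swap sides of each other between the assays.

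The entries with the most similar pattern were found by Pearson's r of log2(TPM + 1) over the 26 total RNA libraries. For lhy they were ZmmRNA011547 (r = 0.951), Zm00001d042880 (0.929) and Zm00001d048693 (0.919), the last with r = 0.939 over the ribosome-bound libraries. ZmmRNA011547 was also the second nearest to prr73 (r = 0.893), between Zm00001d009330 (0.896) and Zm00001d047204 (0.889). For toc1 they were Zm00001d007445 (0.891, and 0.920 in ribosome-bound RNA), Zm00001d050307 (0.880) and Zm00001d017445 (0.865). For gi1 they were Zm00001d020532 (0.914), Zm00001d044759 (0.908) and Zm00001d013074 (0.904), and for gi2 Zm00001d006212 (0.836), Zm00001d049400 and Zm00001d013549 (0.818). conz1 had the closest neighbours in total RNA, Zm00001d025713 (0.972), Zm00001d015818 (0.971) and Zm00001d025915 (0.970). In ribosome-bound RNA their r with conz1 was 0.0559, 0.0118 and -0.13.

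All 7 genes appeared in a list of 365234 protein pairs among 25147 proteins, which carries no score per pair. Their partners numbered 20 for prr73, 15 for gi1, 14 for lhy, 11 for conz1, 8 for cca1, 8 for gi2 and 6 for toc1, against a median of 7 over all proteins with quartiles of 2 and 21. No pair joined any of the 7 to another. Of their 76 distinct partners, 5 were shared. Zm00001d010804 was paired with lhy, cca1 and gi1, Zm00001d024679 with gi1 and toc1, Zm00001d047282 with cca1 and toc1, Zm00001d008546 with gi2 and conz1, and Zm00001d025182 with gi1 and prr73. Each of these 5 proteins had 1786 to 3032 partners in the list.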

How the data were processed

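The authors deposited TPM for total RNA and for ribosome-bound RNA. RSEM, StringTie, HISAT, the build B73 RefGen_v4, Bowtie 1.1.2, SAMtools 1.9 and cutadapt 1.9.1 are named in the submitters' processing notes, without their roles. TPM keep no depth, so sequencing depth is unknown and values carry no counting interval. A joined line of the total RNA table was split into its records. The genes and lists were chosen with earlier results of these data known. Named entries were the 7 genes and the 3 entries most correlated with each. Fits used limma 3.58.1 in R 4.3.3 with a mean-variance trend and organ class as the factor, after tests on simulated data. L and N were paired by the leaf position in the labels, with position as a block. The written design names this L and N step "stem vs leaf" by mistake, and it was run as its text describes. Alternatives were another pseudocount, no filter, quantile normalization, leaf classes without N or L, and leaving out libraries. Of 50738 identifiers 0 matched the 49888 genes of the reference table, so promoter motifs, marker genes and other clock genes were not analysed here. Small RNA and circRNA files hold no rows for these genes and were left out. Protein pairs were used as deposited.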

Additional observations from a re-analysis of the deposited data

Results flagged for a closer look

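Among 32 gene and group combinations of 4 or 6 libraries, 2 held a library flagged as an outlier of its group, and chance flags about 1 in 20. lhy stood at 16.38 TPM in total RNA of the 2mm Tassel, while the other 5 inflorescences had 0.16 to 1.03 TPM. The 2mm Tassel also had the highest listed sum, 2.39 times that of the 1cm Tassel, and after scaling both to the same sum its lhy level was 42.8 times that of the 1cm Tassel. On that scale the ratio of the tassels was 2.40 for prr73, 2.11 for conz1, 1.46 for gi1, 1.33 for gi2 and 0.771 for toc1. Ribosome-bound toc1 was at 0.19 TPM in the L first leaf and listed at 0 in the other 3 L leaves, a small difference near 0 TPM.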

How the results depend on the processing

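Of the 6 genes in total RNA, 5 were called between inflorescence and leaf, and 5 when any 1 inflorescence was left out, 3 with quantile normalization, 6 without N leaves and 4 without L leaves. In the main fits, 36.8% of all entries were called higher and 10.5% lower in inflorescence, and 40.8% and 9.43% in meristem. The shares were 34.1% and 6.27% in root and 21.8% and 7.92% in stem. They were 46.1% and 11.5% in ribosome-bound inflorescence and 18.3% and 3.45% for the ratio. The counts of genes are to be read beside these shares. The 2 genes called in the meristem became 1 without a filter, 0 with quantile normalization, 3 without N leaves, with lhy lower, and 1 to 2 when a library was left out. Without L leaves they were 2, with gi2 called in place of toc1. The 2 called in root became 0 with quantile normalization, 1 without L leaves and 0 when either root was left out, which leaves an arm of 1 library assumed to vary like the other groups, while toc1 stayed at 1.70 to 1.80. The 0 called in stem became 2 without N leaves. The 4 ribosome-bound calls were 3 to 5 under every alternative. For the ratio, conz1 is left out of the count, since no test of it is given. The 3 other ratio calls became 0 with a pseudocount of 0.1 TPM, with quantile normalization and without L leaves. They became 2 without N leaves and 0 to 3 when an inflorescence was left out.

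prr73 changed direction most often. Under quantile normalization it was -0.63 in inflorescence, -0.62 in meristem, -0.66 in root and -0.96 in ribosome-bound inflorescence, and without N leaves it was -1.09, -0.87, -0.98 and -0.39 in that order and -0.55 in stem. Without the 2mm Tassel its inflorescence difference was -0.11. lhy in the meristem was 0.77 without L leaves and 0.0892 without the SAM at V1, and in stem it was -0.24 with quantile normalization, -1.73 without N leaves and -0.89 without the internode. With quantile normalization gi1 was -0.17 in the meristem and conz1 -0.0206 in root. The cause was not tested.

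Counts over all entries moved by more than 1.5 times in a few settings. Root calls fell from 10099 to 5923 with quantile normalization and were 6058 to 7885 without a root library. Stem calls went from 7434 to 11516 with a pseudocount of 0.1 and were 3418 to 6925 without a stem library. Ratio calls went from 4271 to 1415 with a pseudocount of 0.1, to 2847 without L leaves and to 2667 to 3750 without an inflorescence. Entries called between L and N leaves went from 1087 to 2200 with a pseudocount of 0.1 and were 852 to 1181 without a leaf position. Without the replicate block of leaf position 420 entries were called, and the 5 genes whose L and N values stood apart do not depend on that block. Quantile normalization also moved the split of calls, from 9199 higher and 2621 lower to 4516 and 4399 for inflorescence, 10187 and 2357 to 4601 and 4318 for meristem, 8531 and 1568 to 3235 and 2688 for root, 5454 and 1980 to 3387 and 3170 for stem, 11909 and 2977 to 6331 and 5482 for ribosome-bound inflorescence, 3595 and 676 to 1677 and 1544 for the ratio, and 566 and 521 to 685 and 293 for L and N. The depth behind TPM is unknown, and a tissue has no replicate library, so the precision of a single value cannot be given.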

Other observations

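The stem and the internode had opposite orders of lhy in the 2 assays. Stem minus internode was -1.88 in log2(TPM + 1) in total RNA and 2.64 in ribosome-bound RNA, where cca1 had 2.62. The other 5 genes were lower in the stem in both assays, with gi1 at -0.71 and -1.14, gi2 at -0.75 and -1.06, and toc1 at -0.23 and -0.61. Of 262 entries that differed at least 2-fold between these tissues in both assays, 47.3% had opposite orders.

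The SAM samples gave another such case. SAM at V3 minus V4 was -0.92 for toc1 in total RNA and 1.74 in ribosome-bound RNA, while lhy, gi1, gi2, conz1 and prr73 were lower at V3 in both. Of 192 entries that differed at least 2-fold in both assays here, 2.60% had opposite orders. toc1 differed by less than 2-fold in total RNA and is not among them, so this share is no background for it.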
